A study of Homo sapiens with 18 samples.

Results

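The BTG and TOB genes analysed here are BTG1, BTG2, BTG3, TOB1 and TOB2, which were chosen by gene symbol and are 5 of the 60622 genes in the deposited tables. The study used human H1299 cells, an established line from a non-small cell lung cancer, carrying a doxycycline-inducible wild-type p53-FKBP12F36V-HA protein, in which p53 is fused to a mutant FKBP12 domain that serves as a tag. AceTAGs are heterobifunctional molecules made to bring an acetyltransferase to the tagged protein, and the question was what acetylation of p53 does to transcription. Total RNA was sequenced after 24 h in 6 groups of 3 libraries. Induced cells, labelled p53-FKBP12F36V-induced H1299, received doxycycline and then DMSO, AceTAGp300CBP-1 (named for p300 and CBP) or AceTAGPCAFGCN5-4 (named for PCAF and GCN5). Cells labelled H1299 and non-induced received the same 3 treatments. The labels do not say whether the non-induced cells carry the construct, whether the engineered line is 1 clone, at which concentration either compound was used, or whether the 3 libraries of a group are separate cultures. The effects of p53, of doxycycline and of any difference between the cells therefore cannot be told apart, and induction below stands for all of them. P-values measure the spread between these libraries, which may be technical, and the compounds are compared as applied.

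BTG and TOB proteins share a conserved amino-terminal domain and slow cell proliferation when overexpressed. They act as adaptors: the domain binds the deadenylases CNOT7 and CNOT8 of the CCR4-NOT complex, and TOB1 and TOB2 also bind the cytoplasmic poly(A)-binding protein, so that the poly(A) tails of target mRNAs are shortened. BTG2 is a long-known transcriptional target of p53, BTG3 has also been described as p53-responsive, and BTG1 and TOB1 are best known as antiproliferative genes that are expressed in resting cells.

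Library totals ranged from 9055888 to 29166322 counts, so that 3 counts, the floor used here, corresponded to 0.103 to 0.331 counts per 1000000 library counts (CPM). The library with the lowest total was non-induced DMSO library 3. Induced DMSO library 3 stood apart in another way: mitochondrial genes held 0.71% of its counts against 1.32 to 2.45% in the other 17, and differences of members, counts of gene lists and levels that it moves are given with and without it. Summed markers of the epithelial and carcinoma line were 2800 to 4340 CPM, most of it VIM (2370 to 3990 CPM). KRT18 had 154 to 315, KRT8 68.6 to 98.7 and CDH2 30.1 to 41.3 CPM. EPCAM and CDH1 of the same list were at most 0.12 and 0.178 CPM. Summed fibroblast, endothelial, leukocyte and type II pneumocyte markers were at most 2.59 CPM, with PTPRC, the pan-leukocyte marker, at 0 in every library. In bulk RNA, fewer cells of a kind and less RNA per cell cannot be told apart.

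The promoters of 2 members are shown because their sequences and their responses differed: BTG2 differed most of the 5 between induced and non-induced cells, and TOB2 had the closest match to the p53 response element. The sequences are from RefSeq (GRCh38.p14) and run 5′ to 3′ on the gene's strand from 180 bases before the annotated start through the first 20 bases of the transcript. Capitals mark the stretch closest to the p53 response element, a motif of 20 positions made of a palindromic repeat, with a spacer of 0 or 1 base allowed and therefore read on both strands at once. BTG2 lies at chr1:203305339-203305538 on the plus strand and TOB2 at chr22:41446782-41446981 on the minus strand.
BTG2: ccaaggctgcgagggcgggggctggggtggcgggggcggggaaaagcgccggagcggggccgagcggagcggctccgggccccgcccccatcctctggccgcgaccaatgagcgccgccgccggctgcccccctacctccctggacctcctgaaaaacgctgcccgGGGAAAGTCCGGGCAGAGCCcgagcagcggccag
TOB2: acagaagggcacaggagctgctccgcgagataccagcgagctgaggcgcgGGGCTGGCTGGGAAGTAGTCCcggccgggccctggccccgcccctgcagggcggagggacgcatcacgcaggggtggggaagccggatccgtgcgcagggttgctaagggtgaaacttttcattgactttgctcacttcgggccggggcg
In BTG2 the closest stretch matched 16 of 20 positions and spanned bases -14 to 6 around the start, and 41.3% of the 35116 RefSeq promoters searched (250 bases before to 50 after a start) had a match as close. In TOB2 it matched 17 of 20 positions around a spacer of 1 base, at -130 to -110, and 9.8% of promoters had one as close. The closest stretch in TOB1 matched 15 positions in both of its promoters, as in 85.6% of promoters, and those in BTG1 and BTG3 matched 14, as in 99.4%. The sequences thus order the members differently from their responses below, and a match in this window is a description of letters, not of binding. The CCAAT box, held on either strand by 34.6% of promoters, was present in BTG1, BTG2 and 1 of 2 TOB1 promoters, and TGACG, the core of the cyclic AMP response element (24.6% of promoters), was found in the same 3. TATAAA (11.5%) was found in BTG1, and the GC box GGGCGG (45.0%) in all but 1 TOB1 promoter.

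BTG2 was low in non-induced cells and was the member that rose with induction in DMSO. BTG2 (ENSG00000159388; GRCh38 chromosome 1, 203305491 to 203309602, plus strand) encodes a co-factor that recruits the CCR4-NOT deadenylases and restrains entry into S phase. With DMSO it was at 1.97, 1.48 and 2.32 CPM in the non-induced libraries and at 29.2, 28.7 and 25.8 CPM in the induced ones. Every induced library was far above every non-induced one. Induction raised BTG2 14.9-fold (log2 fold change 3.89 ± 0.15 SE; edgeR adjusted p = 1.9e-06), which ranked 13 of 15055 genes tested by fold change. It was the only 1 of 5 members called at an adjusted p below 0.05 in this comparison, in which 13.8% of all genes were called. Without induced DMSO library 3 the rise was 3.95, and TOB1, described below, was called as well, where 32.5% of all genes were. The non-induced DMSO values rest on 52, 38 and 21 counts, so the fold is less certain than the induced levels (95% interval of the log2 fold change 3.56 to 4.23).

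Both compounds raised BTG2 further in induced cells. With AceTAGp300CBP-1 the induced libraries had 59.6, 64 and 63.5 CPM of BTG2, and with AceTAGPCAFGCN5-4 they had 59.3, 59.6 and 62.3 CPM. All 6 were above the highest induced DMSO library, 29.2 CPM. Against induced DMSO (27.9 ± 1.85 CPM, SD, n = 3), BTG2 was 2.22-fold higher with AceTAGp300CBP-1 (log2 1.15 ± 0.08 SE; edgeR adjusted p = 8.75e-05), 1 of 5 members called where 5.98% of all genes were. It was 2.11-fold higher with AceTAGPCAFGCN5-4 (log2 1.08 ± 0.09 SE; edgeR adjusted p = 0.000366), where 0.345% of all genes were called, and by p BTG2 ranked 7 of 15078. These comparisons share their DMSO libraries. Without induced DMSO library 3 the differences were 1.11 and 1.04, and 21.2% and 0.743% of all genes were called. The authors' deposited table lists 1.14 ± 0.11 (adjusted p = 9.34e-22) and 1.08 ± 0.11 (adjusted p = 7.77e-19) for the same differences.

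In non-induced cells no rise of BTG2 was detectable at this depth. AceTAGp300CBP-1 gave 2.2, 2.64 and 1.45 CPM and AceTAGPCAFGCN5-4 gave 1.72, 2.25 and 2.34 CPM, overlapping the DMSO libraries. The log2 differences from DMSO were 0.18 (95% interval -0.365 to 0.726) and 0.17 (-0.346 to 0.691), and neither was called by edgeR. Whether the compounds' effect differed between induced and non-induced cells was tested as an interaction. For AceTAGp300CBP-1 it was 0.97 ± 0.23 SE on the log2 scale (95% interval 0.468 to 1.47; unadjusted p = 0.000847; edgeR adjusted p = 0.0599), and for AceTAGPCAFGCN5-4 it was 0.89 ± 0.20 SE (0.461 to 1.33; unadjusted p = 0.000483; edgeR adjusted p = 0.193). Neither passed after adjustment over all genes, where 1.28% and 0.0696% of genes were called, and 0 of 5 members were called for either. By DESeq2 both interactions of BTG2 passed, with adjusted p = 0.00289 and 0.0298. With edgeR, leaving out 1 library at a time let the first pass without induced DMSO library 3 (0.90; adjusted p = 0.0198) and without non-induced AceTAGp300CBP-1 library 2 (1.15; adjusted p = 0.0341). With the compounds as background, induction raised BTG2 29-fold (log2 4.86 ± 0.12 SE; edgeR adjusted p = 1.19e-15) and 27.9-fold (4.80 ± 0.12 SE; adjusted p = 9.88e-13), respectively.

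**Figure D1:**
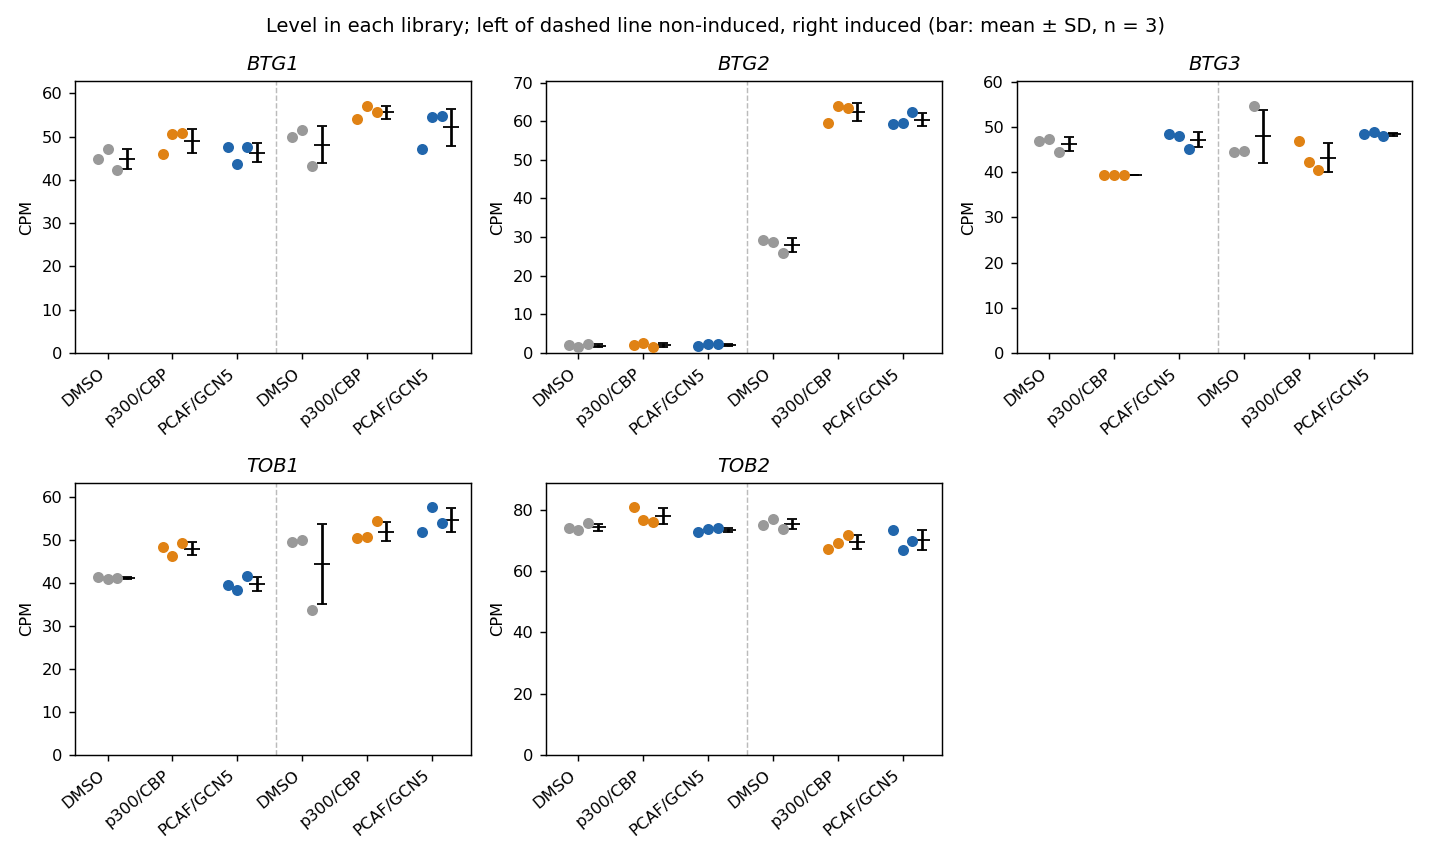
CPM of the 5 members in each of the 18 libraries (points), with the group mean and SD (bars, n = 3), non-induced groups left and induced groups right of the dashed line; every vertical axis starts at 0. BTG2 steps from at most 2.64 CPM to 25.8 or more with induction and to 59.3 or more with either compound, while the other members keep within narrow ranges apart from induced DMSO library 3, low in TOB1 and high in BTG3.

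The 2 compounds did not separate on BTG2 in induced cells. AceTAGp300CBP-1 minus AceTAGPCAFGCN5-4 was 0.07 ± 0.06 SE on the log2 scale, with a 95% interval of -0.0587 to 0.191, and the libraries overlapped. The interval runs from 0.96-fold to 1.14-fold, and a p that misses the threshold does not show that the compounds act alike. All 5 members were compared between the compounds in both states, 10 tests in all within the adjustment over every gene. In induced cells edgeR and DESeq2 called 0 of 5 (edgeR called 4.12% of all genes). There 1 member, BTG3, had an unadjusted p below 0.05, as did 2453 of 14983 genes tested. A set of 10 genes of the p53 arrest and feedback response, a list chosen with earlier results of these data known, gives the setting. By edgeR's adjusted p, AceTAGp300CBP-1 was above AceTAGPCAFGCN5-4 for 5 of the 10 and below for 0, where 4.12% of all genes were called. The median log2 difference of the 10 was 0.24, against 0.000423 over all genes tested. CDKN1A, the CDK inhibitor p21, differed by 1.54 ± 0.05 SE (edgeR adjusted p = 1.46e-11) and SESN1, a stress-response inhibitor of mTORC1 signalling, by 0.60 ± 0.07 SE (adjusted p = 0.000147). MDM2, the ubiquitin ligase that limits p53, stood at -0.05 ± 0.07 SE (adjusted p = 0.793). Whether BTG2 differs from any of these genes in this respect was not tested.

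**Figure D2:**
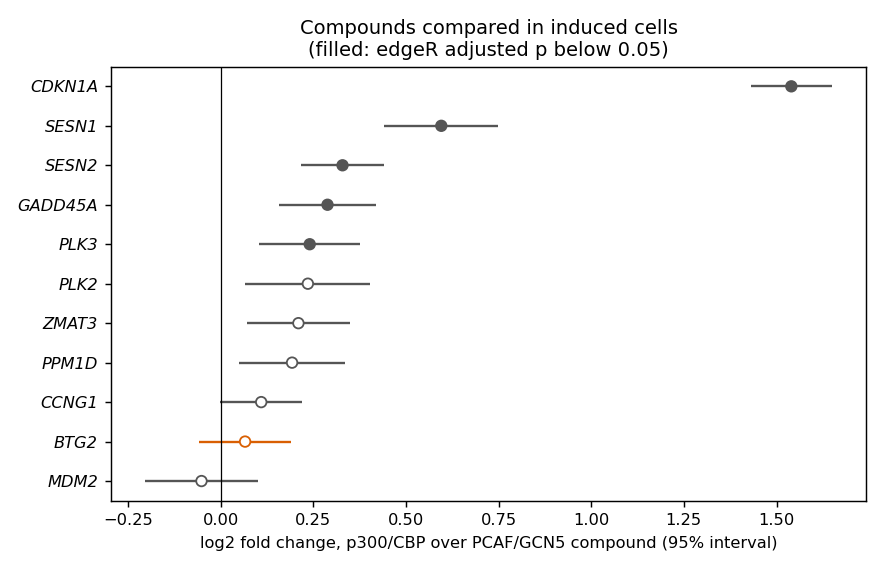
Log2 fold change of AceTAGp300CBP-1 over AceTAGPCAFGCN5-4 in induced cells for BTG2 (orange) and 10 p53 arrest and feedback genes (grey), with 95% intervals; filled points passed an edgeR adjusted p below 0.05. CDKN1A lies farthest right at 1.54, and the intervals of BTG2, CCNG1 and MDM2 include 0.

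TOB1 (ENSG00000141232; chromosome 17, 50862223 to 50867978, minus strand), the adaptor that links CCR4-NOT to poly(A)-binding protein, showed small shifts, given here for each state in turn. In non-induced cells it was at 41.3, 40.8 and 41.2 CPM with DMSO, 48.3, 46.2 and 49.3 with AceTAGp300CBP-1 and 39.4, 38.3 and 41.5 with AceTAGPCAFGCN5-4. The AceTAGp300CBP-1 libraries were above all others. TOB1 rose 1.15-fold with AceTAGp300CBP-1 (log2 0.20 ± 0.06 SE, 95% interval 0.0752 to 0.33; edgeR adjusted p = 0.0419), a call that was lost with DESeq2 (adjusted p = 0.0659). Of the 6 fits that left out 1 library, it held in the 1 without non-induced AceTAGp300CBP-1 library 3, and was lost in the other 5 (adjusted p up to 0.183). For TOB1 the authors' deposited table gives 0.20 ± 0.07 (adjusted p = 0.0287). AceTAGp300CBP-1 was also above AceTAGPCAFGCN5-4 by 0.27 (95% interval 0.115 to 0.423), which missed the threshold after adjustment (unadjusted p = 0.00199; edgeR adjusted p = 0.087).

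In induced cells TOB1 was at 49.4, 50 and 33.6 CPM with DMSO, 50.5, 50.6 and 54.4 with AceTAGp300CBP-1 and 51.9, 57.5 and 54 with AceTAGPCAFGCN5-4. The low DMSO value is library 3, and the DMSO libraries lay below both compounds. The differences from DMSO, 0.22 ± 0.13 SE and 0.26 ± 0.13 SE, were not called by edgeR (adjusted p = 0.351 and 0.507) and were 0.06 and 0.11 without that library. Induction with DMSO left TOB1 at 0.08 ± 0.13 SE (edgeR adjusted p = 0.744), but at 0.24 (adjusted p = 0.00179) without induced DMSO library 3, so a single library decides this call. Induction with AceTAGPCAFGCN5-4 raised TOB1 1.34-fold (log2 0.42 ± 0.08 SE; edgeR adjusted p = 0.000937), which with BTG2 made 2 of 5 members called there, against 23.9% of all genes. With AceTAGp300CBP-1 the induced libraries were 0.10 ± 0.06 SE above the non-induced ones (edgeR adjusted p = 0.208). The interaction of induction with AceTAGp300CBP-1 for TOB1 was 0.03 ± 0.15 SE (edgeR adjusted p = 0.966) and turned to -0.14 without induced DMSO library 3. With AceTAGPCAFGCN5-4 it was 0.33 ± 0.16 SE (edgeR adjusted p = 0.658) and 0.17 without that library, so a difference between states was not shown for either compound.

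TOB1-AS1, an antisense gene whose model overlaps TOB1 (chromosome 17, 50866679 to 50910774, plus strand), had 2.54 to 6.23 CPM. The highest value, 6.23 CPM, was in induced DMSO library 3, where TOB1 was lowest. The libraries were made with a strand-marking kit, but whether the counting used strand is not given in the sources used here. Reads of the shared stretch may therefore not be separable, and the part of this in the TOB1 value was not tested.

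BTG3 (ENSG00000154640; chromosome 21, 17593653 to 17612947, minus strand), a family member that has been reported to bind E2F1 and CHK1, fell with AceTAGp300CBP-1 in non-induced cells. The libraries had 46.9, 47.4 and 44.5 CPM with DMSO, 39.3, 39.4 and 39.3 with AceTAGp300CBP-1 and 48.4, 47.9 and 45.2 with AceTAGPCAFGCN5-4. All AceTAGp300CBP-1 libraries were below all of the others. BTG3 fell by 0.26 ± 0.06 SE on the log2 scale (95% interval -0.386 to -0.127; edgeR adjusted p = 0.0133), to 0.837 of DMSO, and the authors' deposited table gives -0.27 ± 0.06 (adjusted p = 0.000323). With TOB1 it made 2 of 5 members called in this comparison, where 9.89% of all genes were called. The call was lost when all 6 groups were fitted together (adjusted p = 0.0816) and without any of 3 single libraries: non-induced AceTAGp300CBP-1 library 2 (0.0533), non-induced DMSO library 1 (0.0784) and library 2 (0.101). Between the compounds in non-induced cells BTG3 differed by -0.26 (95% interval -0.411 to -0.113; unadjusted p = 0.00191; edgeR adjusted p = 0.0864). There edgeR and DESeq2 called 0 of 5 members, and edgeR called 1.09% of all genes. An unadjusted p below 0.05 was found for 2 of the 5 members and for 2254 of 15131 genes tested.

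In induced cells BTG3 was at 44.4, 44.8 and 54.7 CPM with DMSO, 46.8, 42.2 and 40.5 with AceTAGp300CBP-1 and 48.4, 48.8 and 48 with AceTAGPCAFGCN5-4. DMSO library 3 was the highest of all 18 libraries. Neither compound changed BTG3 beyond this spread: the log2 differences were -0.16 ± 0.11 SE and -0.02 ± 0.11 SE (edgeR adjusted p = 0.39 and 0.937), or -0.05 and 0.10 without DMSO library 3. Induction with DMSO gave 0.02 ± 0.10 SE (95% interval -0.202 to 0.252), which turned to -0.10 without that library. The overlapping antisense gene BTG3-AS1 (chromosome 21, 17611744 to 17633199, plus strand) had 0.379 to 1.83 CPM. It stood 1.07 ± 0.35 SE higher with AceTAGp300CBP-1 in non-induced cells, where BTG3 was lower, without passing the test (edgeR adjusted p = 0.0664).

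BTG1 (ENSG00000133639; chromosome 12, 92140278 to 92145846, minus strand), a partner of the arginine methyltransferase PRMT1 and the closest relative of BTG2, moved little. Non-induced libraries had 44.9, 47.1 and 42.3 CPM with DMSO, 45.9, 50.5 and 50.7 with AceTAGp300CBP-1 and 47.6, 43.7 and 47.6 with AceTAGPCAFGCN5-4. Induced libraries had 49.8, 51.4 and 43.3 CPM with DMSO, 54, 57.1 and 55.6 with AceTAGp300CBP-1 and 47.1, 54.5 and 54.8 with AceTAGPCAFGCN5-4. The induced AceTAGp300CBP-1 libraries were above all induced DMSO and all non-induced libraries. Against induced DMSO the difference was 0.20 ± 0.08 SE (95% interval 0.0218 to 0.376; edgeR adjusted p = 0.174), and 0.14 (adjusted p = 0.0916) without induced DMSO library 3, in which BTG1 was lowest of the induced libraries. The authors' deposited table gives 0.19 with adjusted p = 0.0587. Induction in the presence of AceTAGp300CBP-1 raised BTG1 by 0.17 ± 0.06 SE (1.13-fold; edgeR adjusted p = 0.0374), a call that was lost with DESeq2 (0.0762) and in 5 of 6 fits that left out 1 library, all but the fit without non-induced AceTAGp300CBP-1 library 3. Induction with DMSO gave 0.07 ± 0.08 SE (95% interval -0.114 to 0.262; edgeR adjusted p = 0.605), or 0.13 (adjusted p = 0.109) without that library.

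TOB2 (ENSG00000183864; chromosome 22, 41433494 to 41446801, minus strand), the second poly(A)-binding-protein adaptor, had the highest CPM of the family before scaling by length. It was at 74, 73.3 and 75.6 CPM with DMSO, 80.8, 76.7 and 76.1 with AceTAGp300CBP-1 and 72.9, 73.6 and 74 with AceTAGPCAFGCN5-4 in non-induced cells. In induced cells it was at 75, 77.1 and 73.8 CPM with DMSO, 67.3, 69.3 and 71.8 with AceTAGp300CBP-1 and 73.5, 66.9 and 69.8 with AceTAGPCAFGCN5-4. All induced compound libraries were below all induced DMSO libraries, by small margins. The log2 differences from induced DMSO were -0.12 ± 0.06 SE and -0.14 ± 0.08 SE, and edgeR called neither (adjusted p = 0.254 and 0.538). Induction with DMSO gave -0.01 ± 0.06 SE (95% interval -0.143 to 0.128), so that TOB2, with the closest p53 motif match of the promoters shown above, did not change detectably with induction. Induction in the presence of AceTAGp300CBP-1 lowered TOB2 (log2 -0.18 ± 0.06 SE, 0.884 of the non-induced level; edgeR adjusted p = 0.0199), which made 3 of 5 members called, against 32.6% of all genes. That call did not hold in 4 of 6 fits that left out 1 library: those without library 1 or 2 of either AceTAGp300CBP-1 group (adjusted p 0.0512 to 0.0941).

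**Figure D3:**
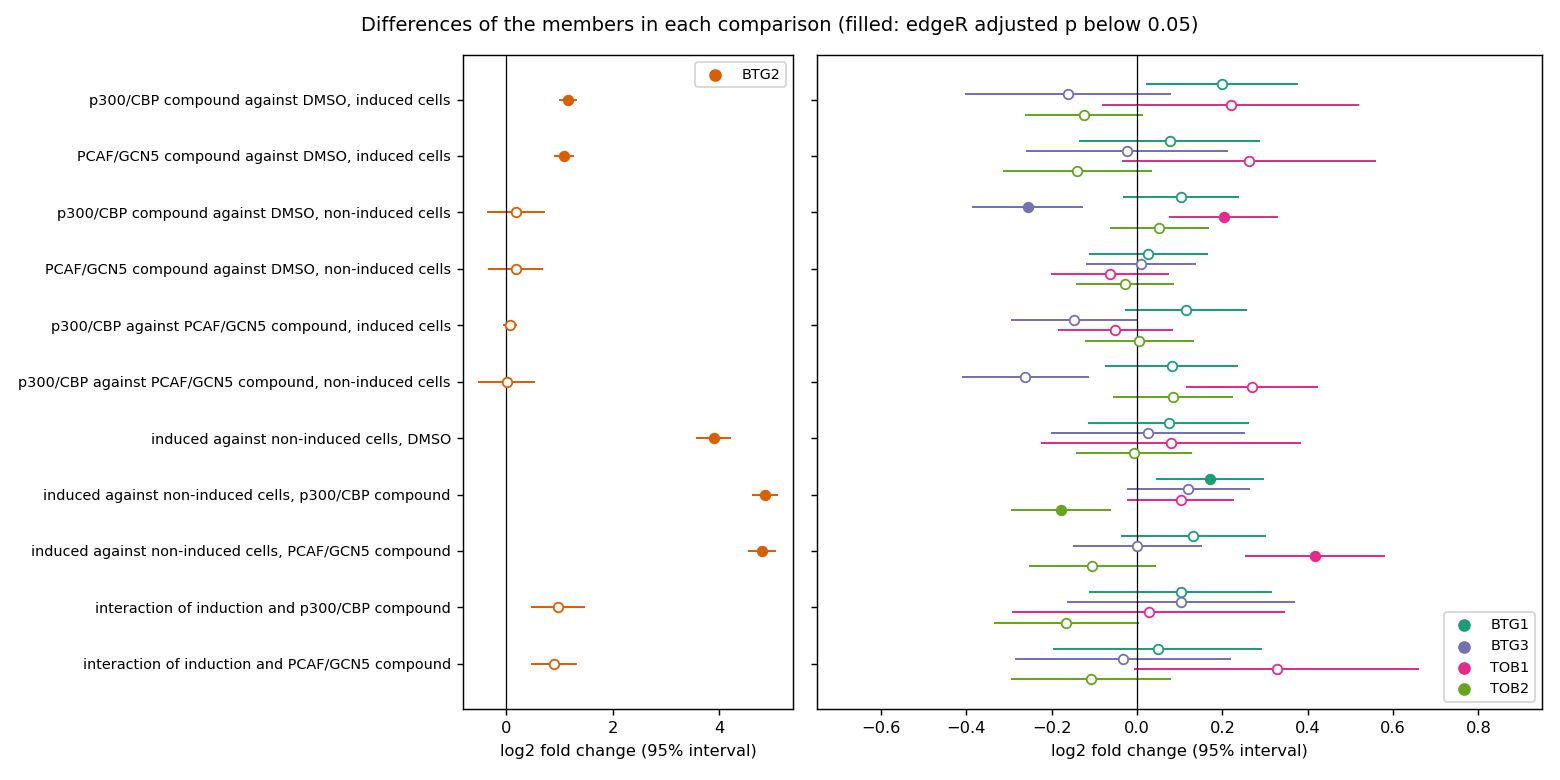
Log2 fold changes of the members with 95% intervals in 9 comparisons of 2 groups and 2 interactions, BTG2 left on a wider axis and the other members right; filled points passed an edgeR adjusted p below 0.05. The 5 filled BTG2 points lie between 1.08 and 4.86. No point of another member lies beyond 0.42 in either direction, though an interval of TOB1 reaches 0.661.

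Separation of groups without overlap was common among all genes, so it carries little on its own. With AceTAGp300CBP-1 in induced cells 4 of 5 members did not overlap with DMSO, against 33.1% of all genes tested, and with AceTAGPCAFGCN5-4 3 of 5, against 18.8%. In non-induced cells the counts were 3 of 5 against 29.8% and 0 of 5 against 12.9%. Between the compounds 1 of 5 did not overlap in induced cells, against 21.5% of all genes, and 3 of 5 in non-induced cells, against 20.9%. Between induced and non-induced cells the counts were 1 of 5 with DMSO against 37.1%, 5 of 5 with AceTAGp300CBP-1 against 43.9% and 2 of 5 with AceTAGPCAFGCN5-4 against 40.1%. AceTAGPCAFGCN5-4 in non-induced cells called none of the members with edgeR or DESeq2. Unadjusted p-values were 0.345 or higher, and 0.0199% of all genes were called.

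Scaled by gene model length, BTG2 took up a larger part of the family with induction. In non-induced DMSO cells BTG3 was highest at 20.1 ± 0.665 CPM per kb (SD, n = 3), followed by TOB2 at 17.1 ± 0.271, TOB1 at 16.3 ± 0.1, BTG1 at 9.32 ± 0.497 and BTG2 at 0.698 ± 0.152, and no neighbours in this order overlapped. In induced DMSO cells BTG2 reached 10.1 ± 0.671 CPM per kb, overlapping BTG1 at 10 ± 0.897, while TOB1 (17.6 ± 3.68) overlapped both BTG3 above it (20.8 ± 2.53) and TOB2 below it (17.3 ± 0.379). The place of TOB1 in this order rests on library 3: in libraries 1 and 2 TOB1 was at 19.6 and 19.8 CPM per kb, above BTG3 at 19.2 and 19.4 and clear of TOB2 at 17.3 and 17.8. With AceTAGp300CBP-1 in induced cells BTG2 was first at 22.6 ± 0.875, its lowest library at 21.6, the same as the highest of TOB1. TOB1 followed at 20.6 ± 0.869, overlapping BTG3 at 18.7 ± 1.41, with TOB2 at 16 ± 0.514 and BTG1 at 11.6 ± 0.315 below them. With AceTAGPCAFGCN5-4 BTG2 at 21.9 ± 0.596 and TOB1 at 21.6 ± 1.11 overlapped, as did TOB1 and BTG3 at 21 ± 0.157.

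The sum over the 5 members was 63.5 ± 0.7 CPM per kb in non-induced DMSO cells, 75.9 ± 3.04 in induced DMSO cells (77.1, 78.1 and 72.4 in libraries 1 to 3), 89.5 ± 0.787 with AceTAGp300CBP-1 and 91.5 ± 1.44 with AceTAGPCAFGCN5-4. BTG2 made up 1.1 ± 0.251% of the sum in the first, 13.3 ± 0.414% in the second and 25.3 ± 0.819% and 23.9 ± 0.521% with the compounds. The non-induced compound groups had sums of 65 ± 0.35 and 63.6 ± 0.612 CPM per kb and BTG2 shares of 1.17 ± 0.34% and 1.2 ± 0.196%. These are levels, given without a test.

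**Figure D4:**
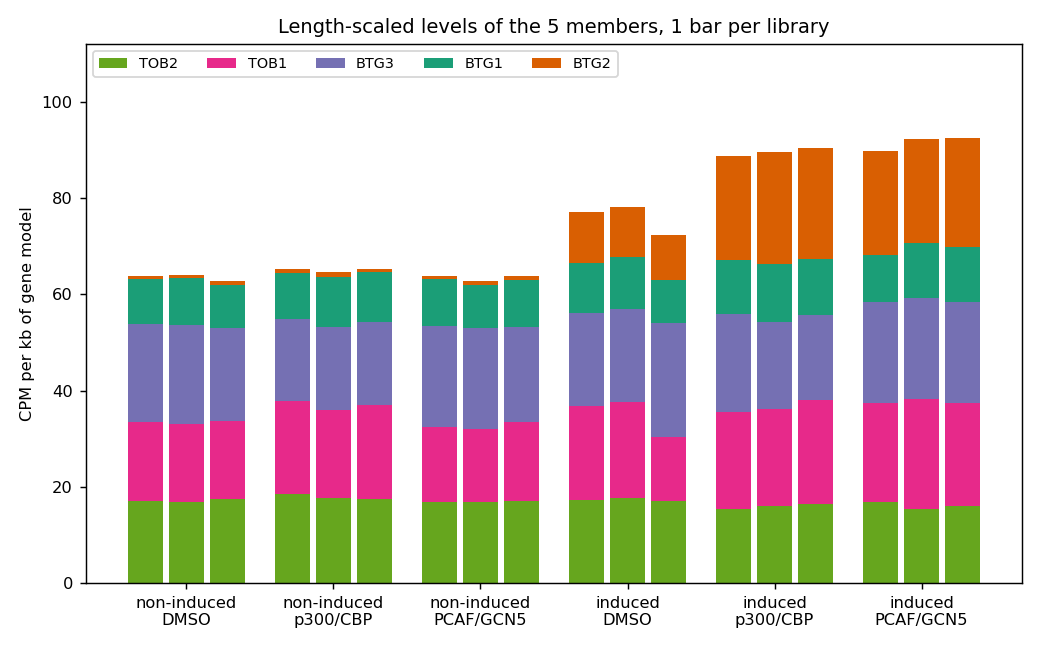
CPM per kb of gene model for the 5 members, stacked, with 1 bar for each of the 18 libraries. The BTG2 segment grows from 1.1% of the mean sum in non-induced DMSO cells to 13.3% in induced DMSO cells and to 23.9% or more with either compound, while the segments of the other members change little.

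The family acts through the deadenylation machinery, whose genes are given here by counts. Of 12 CCR4-NOT subunits, all tested, 0 rose and 0 fell with induction in DMSO or with either compound in induced cells, by edgeR's adjusted p, with medians of -0.09, 0.02 and 0.08 on the log2 scale. The shares of all genes called there were 13.8%, 5.98% and 0.345%, so that 0 of 12 says little about the subunits in any of these comparisons, least with AceTAGPCAFGCN5-4. At an unadjusted p below 0.05 the counts were 4, 2 and 0 of 12. Over all genes tested they were 4308 of 15055, 3490 of 15019 and 1530 of 15078. When induced DMSO library 3 was left out, 3 subunits rose and 3 fell with induction in DMSO (32.5% of all genes called), with CNOT6L at 0.38 ± 0.06 SE having the smallest p. In such fits 1 rose and 2 fell with AceTAGp300CBP-1 (21.2%), and 0 passed with AceTAGPCAFGCN5-4 (0.743%). With induction in the presence of AceTAGp300CBP-1 and of AceTAGPCAFGCN5-4, 1 of 12 subunits was called each time, against 32.6% and 23.9% of all genes. It was CNOT6L, a deadenylase subunit, which rose by 0.43 ± 0.07 SE (edgeR adjusted p = 6.9e-05) and by 0.43 ± 0.08 SE (adjusted p = 0.00127). CNOT9 fell by 0.22 ± 0.05 SE with AceTAGp300CBP-1 in non-induced cells (edgeR adjusted p = 0.00965), 1 of 12 against 9.89% of all genes. None of 8 other deadenylation and poly(A)-binding genes, PAN2, PAN3, PARN and PABPC1 among them, passed in any of the 11 comparisons. In these, 0.0199% to 32.6% of all genes were called. An unadjusted p below 0.05 was found in 7 of 88 tests. Over all genes tested such counts ran from 959 of 15100 to 6148 of 14844 per comparison, so 7 of 88 is not read as a response. Without induced DMSO library 3, PABPC4, a poly(A)-binding protein, fell with induction in DMSO (-0.12 ± 0.04 SE; edgeR adjusted p = 0.0157). Among 10 decapping and decay genes, induction with DMSO raised DCP1B, a decapping co-factor (0.51 ± 0.11 SE; edgeR adjusted p = 0.0183), and lowered PATL1, a scaffold of the decapping complex (-0.51 ± 0.13 SE; adjusted p = 0.0301), and without library 3 it raised 2 and lowered 2. Induction in the presence of AceTAGp300CBP-1 raised 4 of the 10 and lowered 1, where 32.6% of all genes were called, and in the presence of AceTAGPCAFGCN5-4 it raised 2 and lowered 0, against 23.9%. DCP1B rose in both (0.86 ± 0.10 SE, adjusted p = 2.42e-06, and 0.94 ± 0.15 SE, adjusted p = 0.000289), as did XRN1, the cytoplasmic 5′ to 3′ exonuclease (0.19 ± 0.05 SE, adjusted p = 0.00843, and 0.35 ± 0.08 SE, adjusted p = 0.00483). Against induced DMSO, AceTAGp300CBP-1 raised 1 of the 10, DCP1B (0.50 ± 0.11 SE; edgeR adjusted p = 0.0318), or 3 without library 3. AceTAGPCAFGCN5-4 moved 0 by that test with or without library 3. With this compound 1 of the 10 had an unadjusted p below 0.05, as did 1530 of 15078 genes tested. Like all lists here, these were chosen with earlier results of the data known, and no list was tested as a set.

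Among 7 reported binding partners of the family, 2 fell and 0 rose with induction in DMSO, E2F1 and CHEK1, against 13.8% of all genes called, which became 3 that fell and 1 that rose, against 32.5%, without induced DMSO library 3. E2F1, the S-phase transcription factor, was at 80 ± 1.92 CPM (SD, n = 3) in non-induced and 31.6 ± 3.78 CPM in induced DMSO cells (log2 -1.37 ± 0.10 SE; edgeR adjusted p = 5.23e-05), and CHEK1, the checkpoint kinase CHK1, fell by 0.44 ± 0.06 SE (adjusted p = 0.00218). With AceTAGp300CBP-1, 1 of the 7 fell in induced cells and 2 fell in non-induced cells, against 5.98% and 9.89% of all genes called. E2F1 fell in both (-1.04 ± 0.11 SE, edgeR adjusted p = 0.00101, and -0.72 ± 0.09 SE, adjusted p = 9.29e-05). CHEK1 fell in non-induced cells (-0.25 ± 0.05 SE; adjusted p = 0.00655). Without induced DMSO library 3, 2 of the 7 fell in induced cells, against 21.2%. With AceTAGPCAFGCN5-4 in induced cells 0 of 7 passed, against 0.345%, and E2F1 was at -0.54 ± 0.16 SE (adjusted p = 0.379). Of 8 G1 to S genes, the step that the family restrains, 5 fell and 0 rose with induction in DMSO, among them CDK2 (-1.09 ± 0.08 SE; edgeR adjusted p = 6.25e-05) and CCND1, cyclin D1 (-0.55 ± 0.06 SE; adjusted p = 0.00066). With AceTAGp300CBP-1 in induced cells 4 fell and 1, RB1, rose, where 5.98% of all genes were called. With AceTAGPCAFGCN5-4 0 of 8 passed there, where 0.345% were, so these counts are not read as a difference between the compounds. Leaving out induced DMSO library 3, 6 fell with induction in DMSO, 5 fell and 1 rose with AceTAGp300CBP-1 and 0 passed with AceTAGPCAFGCN5-4. There 32.5%, 21.2% and 0.743% of all genes were called. With AceTAGp300CBP-1 in non-induced cells 4 fell, against 9.89% of all genes. Of 3 FOXO regulators, 1, FOXO4, rose with induction in DMSO (0.39 ± 0.09 SE; edgeR adjusted p = 0.0221), against 13.8% of all genes. With the compounds in induced cells 0 of 3 passed, against 5.98% and 0.345%, so these counts say little about the FOXO genes. The counts were the same without library 3, where 32.5%, 21.2% and 0.743% of all genes were called.

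Most of the p53 arrest and feedback genes rose with induction, as BTG2 did. With DMSO, induction raised 9 of 10 and lowered 0, where 13.8% of all genes were called. The median log2 fold change was 1.08 against 0.00928 over all genes tested. PLK2 was the exception at -0.11 ± 0.09 SE (edgeR adjusted p = 0.437). In induced cells AceTAGp300CBP-1 raised 9 of 10 (median 0.63) and AceTAGPCAFGCN5-4 raised 4 of 10 (median 0.34), where 5.98% and 0.345% of all genes were called. Without induced DMSO library 3 these counts were 9 with induction in DMSO and 10 and 5 with the compounds. The shares of all genes called in these fits were 32.5%, 21.2% and 0.743%. MDM2 rose most of the 10 on induction in DMSO (3.06 ± 0.06 SE; edgeR adjusted p = 4.33e-08), with BTG2 at 3.89 above it and CDKN1A at 1.95 ± 0.07 SE below. With AceTAGp300CBP-1 in induced cells CDKN1A rose by 2.75 ± 0.08 SE (edgeR adjusted p = 2.34e-07), BTG2 by 1.15 and MDM2 by 0.29 ± 0.07 SE (adjusted p = 0.0363). Differences between these genes were not tested.

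Across the 18 libraries, the levels most like that of BTG2 among 16019 genes, by Pearson's r of log2 CPM with a prior count of 2, included those of CYFIP2 and DRAM1, each with r = 0.99. CYFIP2, a subunit of the WAVE actin-regulatory complex, had 15.7 CPM in non-induced and 134 CPM in induced DMSO cells, and 329 and 260 CPM with the 2 compounds in induced cells. For TOB1 the most similar were EIF4G3 (r = 0.96), SERINC3 (0.94) and FAM8A1 (0.94), for BTG1 USO1 (0.90), EXOC6 (0.90) and ZBTB41 (0.89), for TOB2 TBCB (0.90), ORAI2 (0.89) and CACNG6 (0.87), and for BTG3 SNORD17 (0.89), SF3A3 (0.86) and MED10 (0.85). The 18 points share libraries and depth and fall into 6 groups, so these values describe the pattern over groups as much as over libraries. SNORD17 averaged 0.363 to 1.66 CPM per group, close to the floor of 3 counts in some libraries. Among the members, BTG1 and TOB1 were most alike (r = 0.77). BTG1 and TOB2 (r = -0.66) and BTG2 and TOB2 (r = -0.65) ran most opposite. All of these r values include induced DMSO library 3 and were not computed without it.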

How the data were processed

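RNA-seq of 18 H1299 libraries (6 groups of 3) was analysed from 4 tables, each setting a compound against DMSO. Per the file headers, the authors deposited per gene the raw count of each library, a normalised count (a signal value), a log2 fold change with its standard error, a test score, and p-values with adjusted p-values, beside gene annotation. Per the submitters' processing notes, StringTie and DESeq2 were used. Aligner, counting settings and use of strand are not given in the sources used here. Libraries were made with a directional kit, per the labels' protocols. The tests used the raw counts, and the normalised values were not used.

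The tables were joined by gene (60622 genes, with 1 gene left out because its line is broken in 1 table). Coordinates and lengths are the deposited ones, and 46551 of 58515 identifiers shared with GENCODE 29 (79.6%) have the same GRCh38 position there. CPM is the count per 1000000 of the library total (9055888 to 29166322 counts), and CPM per kb divides it by the deposited length. That depth puts 3 counts at 0.103 to 0.331 CPM.

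Comparisons were fitted on the groups concerned with edgeR 4.0.16 in R 4.3.3 (TMM, filterByExpr, quasi-likelihood test), with Benjamini-Hochberg adjustment over all genes tested and a threshold of 0.05. Counts simulated with changes of known size in 200 genes served as a test of the procedure: in the 9 comparisons of 2 groups 52 to 76% of 1.5-fold and 78 to 85% of 2-fold changes were recovered, and for the interactions 32 and 23%, and 64 and 65%. Of the simulated calls 1.12% were false for the AceTAGPCAFGCN5-4 interaction and 5.76 to 10.98% in the other comparisons. The latter is more than the threshold of 0.05 is meant to allow. Up to 4844 genes were called in the data, so shares from 200 changed genes may not carry over. The median log2 fold change of all genes was -0.00945 to 0.00928. Alternatives were DESeq2 1.42.0, its size factors in edgeR, no filter, all 6 groups in 1 fit, the replicate number as a block, and each library left out. Counts of the gene lists and length-scaled levels without induced DMSO library 3 were added after seeing the data.

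The text names the 5 members, every other BTG and TOB symbol, at most 4 passing genes of each list per comparison by smallest p, genes of the p53 list set beside BTG2, and the 3 genes most like each member (2 for BTG2). A further gene covered by this rule is not reported here. CCNG1, MDM2 and PLK2 of the p53 list, and PAN2, PAN3, PARN and PABPC1, were named after their values were seen. The members and lists were chosen with earlier results of these data known.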

Additional observations from a re-analysis of the deposited data

Results flagged for a closer look

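TOB2 libraries with AceTAGp300CBP-1 lay on opposite sides of DMSO in the 2 states: all 3 induced libraries lay below all induced DMSO libraries (69.5 ± 2.23 against 75.3 ± 1.64 CPM, SD, n = 3), and all 3 non-induced libraries lay above all non-induced DMSO libraries (77.9 ± 2.58 against 74.3 ± 1.18 CPM). EdgeR called neither difference (log2 -0.12, adjusted p = 0.254, and 0.05, adjusted p = 0.609), and such separation without overlap was shown by 33.1% and 29.8% of all genes. The difference between the 2 effects, tested as an interaction with edgeR, was -0.17 ± 0.08 SE on the log2 scale (95% interval -0.336 to 0.0044) and missed the threshold (unadjusted p = 0.0555; adjusted p = 0.491). Without induced DMSO library 3 it was -0.18 (adjusted p = 0.279).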

How the results depend on the processing

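The rises of BTG2 with induction and with either compound in induced cells passed in every alternative run. Over the members, 628 of 665 alternative values were counted as the same. These kept their side of the threshold, and a change of sign within the SE was allowed. Of the others, 25 no longer passed, 8 newly passed and 4 reversed, with a change of sign beyond the SE. The reversals all came without induced DMSO library 3: BTG3 with AceTAGPCAFGCN5-4 in induced cells (0.10) and with induction in DMSO (-0.10), the AceTAGPCAFGCN5-4 interaction of BTG3 (0.09) and the AceTAGp300CBP-1 interaction of TOB1 (-0.14). Over all leave-one-out fits these 4 values spanned -0.08 to 0.10, -0.10 to 0.08, -0.09 to 0.09 and -0.14 to 0.12. Their cause was not tested.

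With AceTAGp300CBP-1 in non-induced cells the 2 members called became 1 with DESeq2, 1 without the filter, 0 with all 6 groups fitted together, and 0 to 2 when 1 library was left out. For its interaction the 0 called became 1, BTG2, with DESeq2, without the filter and with all groups, and 0 to 1 with 1 library left out. For the AceTAGPCAFGCN5-4 interaction DESeq2 and the unfiltered fit also called 1, BTG2. Leaving out 1 library gave 1 to 2 members called for induction in DMSO and 1 to 3 with AceTAGp300CBP-1. The cause was not tested, other than that leave-one-out fits have fewer libraries.

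Counts over all genes moved more: for AceTAGp300CBP-1 in induced cells 898 with edgeR, 1281 with DESeq2, 2106 unfiltered, 2214 with all groups and 263 to 3234 with 1 library left out, 3234 without induced DMSO library 3. For AceTAGPCAFGCN5-4 there, 52 became 107, 541, 352 and 29 to 114. In non-induced cells AceTAGp300CBP-1 gave 1478, 1340, 1752, 615 and 527 to 2384, and AceTAGPCAFGCN5-4 gave 3, 4, 48, 0 and 0 to 17. Between the compounds the induced counts were 617, 650, 892, 394 and 236 to 1098, and the non-induced ones 165, 377, 594, 212 and 1 to 310. For induction in DMSO they were 2075, 2213, 2927, 3455 and 869 to 5001. For the interactions they were 200, 281, 416, 218 and 123 to 432, and 11, 45, 258, 38 and 8 to 24.

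Same-numbered replicates did not deviate together (27 pairs, r -0.077 to 0.096), so the numbers are not taken to pair libraries. With the replicate number as a block, the members called with AceTAGp300CBP-1 in non-induced cells were 1 in place of 2, and the genes called in induced cells 530 and 71, in non-induced cells 1311 and 14, and between the compounds in non-induced cells 46. Depth limits BTG2 in non-induced cells, where libraries held 21 to 60 counts.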

Other observations

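Other genes with BTG or TOB symbols were low. BTG4, the oocyte-enriched family member, had 31 counts over all 18 libraries, at most 0.273 CPM, and was not tested. TOB2P1, a processed copy of TOB2, had 1.82 to 4.1 CPM, and how the counting shared reads between the 2 is not given, so its values and a small part of those of TOB2 are uncertain. BTG1P1 had 6 counts in all, in non-induced libraries, and BTG3P1 and BTG4P1 were at 0 in every library.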
